A study of Mus musculus with 10 samples.

Results

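RNA-seq was used to follow 9 marker genes of blood monocytes in macrophages of mouse lung metastases and of normal lung: Ly6c1, Ly6c2, Plac8, Vcan, S100a4, F13a1, Hp, Fn1 and Ace. The genes were taken by symbol as a list of monocyte markers, not by a threshold on these data, and all 9 were found among the 24538 genes in the count tables. They and all other lists below were, however, chosen with earlier results of these data known, which limits any comparison of their counts with all genes. Metastasis-associated macrophages (MAMs) were sorted from E0771-LG metastases in wild type female C57BL6/J mice aged 8 to 10 weeks, which at 6 to 8 weeks had received cells of this mouse breast cancer line through the tail vein. MAMs were gated as FSC hi cells positive for CD45, F4/80, MRC1 and CD11B and negative for LY6C and CD11C, and each MAM sample pooled metastases of under 1 mm from 2 to 4 mice. Resident alveolar macrophages (RAMs) came from normal lungs of wild type C57BL6/J mice of the same age with a gate that differed in being CD11C+ and CD11B-. There were 5 libraries of each kind, and in both groups the tissue was digested in the presence of alpha-amanitin and actinomycin D, which block transcription. Both gates removed cells with surface LY6C, the product of Ly6c1 and Ly6c2, so these genes were read in cells selected against their protein. The tumour, the tissue site and the CD11B and CD11C gate differed together, and their parts in any difference between the groups cannot be told apart.

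Monocytes leave the bone marrow as LY6C-high classical cells that carry CCR2, and part of them convert in blood to LY6C-low nonclassical cells that patrol the vessel wall. Classical monocytes that enter a tissue lose LY6C as they become macrophages, while alveolar macrophages of the healthy lung are seeded around birth and renew themselves with little input from blood. Genes such as Plac8, Vcan, S100a4, F13a1, Hp and Fn1 are commonly used to mark classical monocytes and the macrophages that have recently come from them, and Ace is in the mouse a marker of the nonclassical kind.

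Between 55391447 and 87523247 reads lay on genes in MAM libraries and between 50746305 and 72150650 in RAM libraries, and no library pair was identical. Levels are given as CPM, counts scaled to library size, after TMM scaling, which adjusts libraries for their composition of tested genes. The gate could be read in the transcripts: Itgam, which encodes CD11B, was at 6270 CPM in MAMs and 64.3 in RAMs (means, n = 5), and Itgax, which encodes CD11C, was at 171 and 991. Of the markers that both gates share, Ptprc, which encodes CD45, had a log2 fold change of -0.14 that did not pass the test, Adgre1, which encodes F4/80, one of 0.37 and Mrc1 one of -0.89, both of which passed. Of 115 genes with a mean above 1000 CPM in MAMs, 12 had a RAM level under 1.5% of the MAM level and none was below 0.912%. In the other direction the lowest MAM level was 1.07% of the RAM level, among 80 genes above 1000 CPM in RAMs. A RAM value close to 1% of the MAM value was therefore at the lowest level that abundant genes reached in these libraries, and what set that level was not tested.

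Of the 9 genes, 8 were higher in MAMs and Ace was lower. All 9 passed the quasi-likelihood test of edgeR over 11571 genes (Benjamini-Hochberg) and differed by more than 2-fold. Among all genes tested, 56.2% passed at an adjusted p under 0.05, 28.9% as higher and 27.3% as lower, and 15.3% were higher and 15.1% lower with a fold change over 2 as well. Under upper-quartile scaling, which moved the median log2 fold change of all genes by -0.16, 23.7% were higher and 35.2% lower, and the directions of the 9 genes were as under TMM. All 9 genes passed the filter of a mean FPKM, a level scaled to transcript length and depth, of 1 or more in either group, but Ly6c1, Ly6c2, Vcan and F13a1 passed through MAMs only, so the filter itself favoured a higher level in MAMs for these 4. Every MAM library lay above every RAM library for 7 of the 9 genes, against 23.7% of all genes tested. For Ace every MAM library lay below every RAM library, against 21.2% of all genes tested, and for Ly6c1 the groups overlapped. The median log2 fold change of the 9 genes was 4.74, and that of all genes tested was -0.02. In bulk libraries, fewer cells with a transcript and less of it in each cell cannot be told apart, and this holds for every value that follows.

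**Figure D1:**
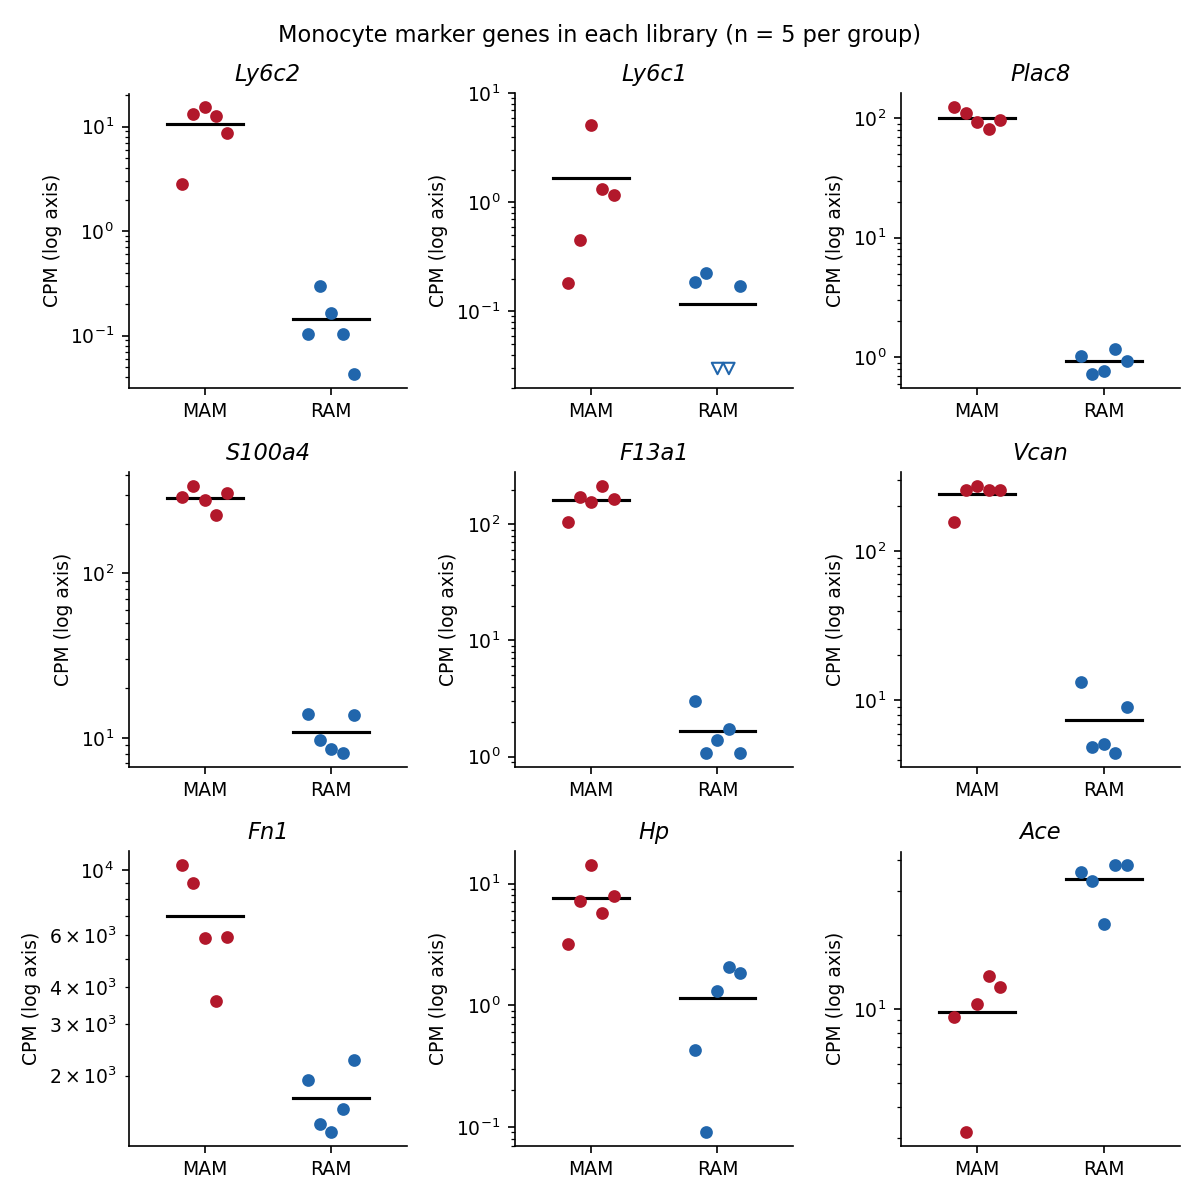
CPM of the 9 monocyte marker genes in each library (vertical axes, logarithmic, a range of its own for each gene) for 5 MAM and 5 RAM libraries. Points are libraries from replicate 1 at the left to replicate 5 at the right of each cluster, the bar is the mean, and open triangles at the foot of the Ly6c1 panel are the 2 RAM libraries with 0 counts. Ace is the only gene of the 9 with RAMs above MAMs, and Ly6c1 the only one whose groups overlap.

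Ly6c2 was the more abundant of the pair of neighbouring genes behind the LY6C antigen, small GPI-anchored surface proteins of the Ly6 family. It was at 2.81, 13.1, 15.4, 12.7 and 8.63 CPM in MAM replicates 1 to 5, and at 0.103, 0.300, 0.166, 0.104 and 0.0426 in RAM replicates 1 to 5. MAM replicate 1 was the lowest of its group and still above every RAM library. The means were 10.5 ± 4.96 and 0.143 ± 0.0980 CPM (SD, n = 5), a log2 fold change of 6.14 (SE 0.599, adjusted p = 4.1e-07, edgeR). The RAM mean was 1.36% of the MAM mean, close to the lowest level reached by abundant genes. RAM values rested on 2 to 20 counts in a library, against 138 to 700 in MAMs.

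Ly6c1 was found at 0.183, 0.450, 5.19, 1.34 and 1.18 CPM in MAM replicates 1 to 5. In RAM replicates 1, 2 and 5 it was at 0.188, 0.225 and 0.171 CPM, and RAM replicates 3 and 4 held 0 counts, which allows up to 0.0621 and 0.0626 CPM (3 counts, counting error only). The groups overlapped, since MAM replicate 1 lay between the RAM values, and MAM replicate 3 stood above all others. With means of 1.67 ± 2.03 and 0.117 ± 0.108 CPM (SD, n = 5), the log2 fold change was 3.78 (SE 1.09, adjusted p = 0.0080, edgeR). Without MAM replicate 3 it was 2.71 (adjusted p = 0.038, edgeR), the lowest when any 1 library was left out. With the replicate number as a block in the fit the call was lost (log2 fold change 3.23, adjusted p = 0.078, edgeR). The call was also lost in limma on FPKM, where Ly6c1 is listed at 0 in MAM replicates 1 and 2 despite 9 and 24 counts.

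The 2 genes lie on the minus strand of chromosome 15 (GRCm38, GENCODE M21), Ly6c1 at 75044018 to 75048830 and Ly6c2 at 75108158 to 75111970, and no other annotated gene overlaps either. Their longest protein-coding transcripts, of 844 and 822 bases, were identical at 802 of 822 aligned bases (97.6%). Of the 723 windows of 100 bases in the Ly6c2 transcript, 114 (15.8%) also occurred in Ly6c1. Only uniquely mapped reads were counted, so reads from such windows could have been dropped from either gene or placed in the wrong one, and the split between the 2 is uncertain. A read placed in the wrong gene of the pair leaves their sum as it is. Summed, they were at 12.2 ± 6.45 CPM in MAMs and 0.260 ± 0.163 in RAMs (SD, n = 5), a log2 fold change of 5.51 (SE 0.575, adjusted p = 8.7e-07, edgeR).

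The share of Ly6c1 in the summed counts ran from 3.33% to 25.2% between MAM libraries. It was 6.12% in MAM replicate 1 (95% Wilson interval 3.25 to 11.2), 3.33% in replicate 2 (2.25 to 4.91), 25.2% in replicate 3 (22.5 to 28.1), 9.56% in replicate 4 (7.68 to 11.8) and 12.0% in replicate 5 (9.78 to 14.7). The interval of replicate 3 met none of the others. RAM shares rested on 5 to 35 counts a library and ran from 0 of 8 and 0 of 5 counts in replicates 3 and 4 to 8 of 10 in replicate 5. Intervals cover counting error only, because the reads carry no molecular identifiers and PCR copies are not separate molecules.

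**Figure D2:**
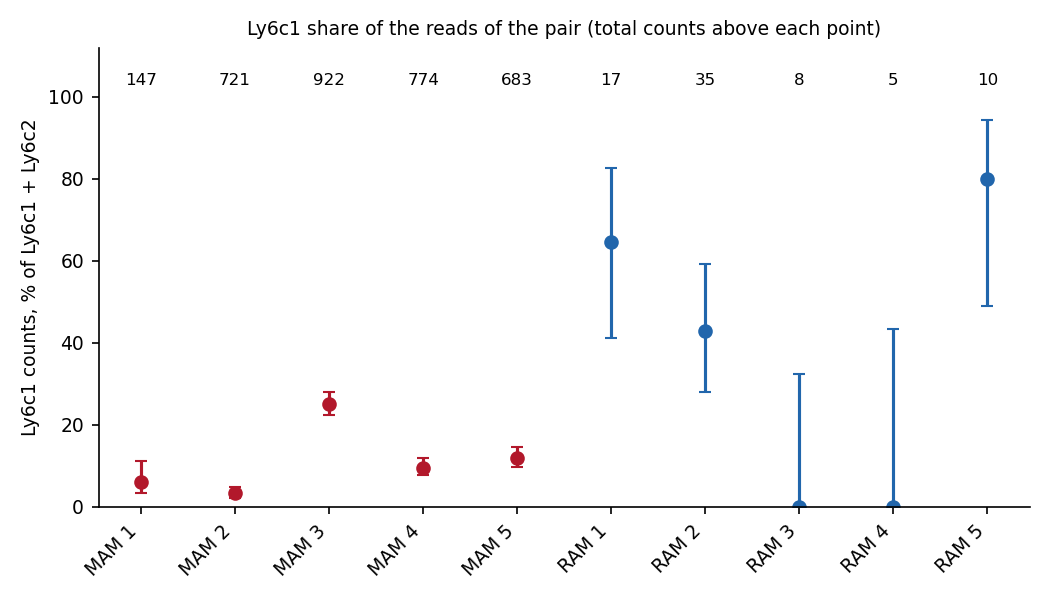
Share of Ly6c1 in the summed counts of Ly6c1 and Ly6c2 (vertical axis, percent) in each MAM and RAM library, with 95% Wilson intervals. MAM replicate 3, at 25.2%, stands above the other MAM libraries, and the RAM intervals are wide because they rest on 5 to 35 counts.

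The 250 bases before the first RefSeq start of each gene (GRCm38.p6, minus strand, 5′ to 3′) are shown because these neighbouring genes share most of their transcript sequence and differ in level. Capitals in Ly6c1 mark TATAAA, the TATA box letters, and in Ly6c2 GAGGAAGT, letters that the macrophage factor PU.1 is known to bind. The windows are chr15:75048838-75049087 and chr15:75111972-75112221.
Ly6c1: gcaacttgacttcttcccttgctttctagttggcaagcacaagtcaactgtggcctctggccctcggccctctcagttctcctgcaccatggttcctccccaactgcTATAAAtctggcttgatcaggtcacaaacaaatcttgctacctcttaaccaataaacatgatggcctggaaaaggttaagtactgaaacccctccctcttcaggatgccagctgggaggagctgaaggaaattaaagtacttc
Ly6c2: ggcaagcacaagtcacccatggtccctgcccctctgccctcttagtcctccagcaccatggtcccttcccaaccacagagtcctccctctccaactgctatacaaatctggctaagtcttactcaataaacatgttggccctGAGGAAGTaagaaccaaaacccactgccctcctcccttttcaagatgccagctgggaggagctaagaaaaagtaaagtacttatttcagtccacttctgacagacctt
These windows were identical at 164 of 216 aligned bases (75.9%), and with other pairs of annotated starts identity ran from 74.7% to 86.02%. The matches differ with the start: before a second start of Ly6c1 GAGGAAGT lies 127 bases upstream and TATAAA is absent, and before a second start of Ly6c2 GAGGAAGT lies 142 and 8 bases upstream, the first being the match shown. Searched on both strands, GAGGAAGT (ACTTCCTC in reverse) was in 2.44% of 32851 RefSeq promoter windows, the TATA box letters in 12.4%, and TTGCNNAA, letters bound by C/EBP factors, in 9.56%. Neither of the windows held TTGCNNAA. A match is a run of letters and was not tested as a binding site.

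Plac8, a small cysteine-rich protein abundant in monocytes and granulocytes, had the largest fold change of the 9. It was at 124, 111, 92.0, 81.3 and 97.1 CPM in MAM replicates 1 to 5 and at 1.03, 0.721, 0.766, 1.17 and 0.938 in RAM replicates 1 to 5. The groups were far apart, and RAM values rested on 37 to 60 counts in a library. The means were 101 ± 16.7 and 0.924 ± 0.185 CPM (SD, n = 5), a log2 fold change of 6.78 (SE 0.186, adjusted p = 2.2e-13, edgeR). The RAM mean was 0.914% of the MAM mean, next to 0.912%, the lowest RAM level of any gene above 1000 CPM in MAMs, so whether RAMs hold any Plac8 transcript of their own was not resolved. When 1% of the other group's mean was subtracted from each library, the log2 fold change was 11.46, a value that depends on the prior count and is no bound.

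S100a4, a calcium-binding protein of motile cells and of many monocytes, was at 290.1, 341, 278, 227 and 310.0 CPM in MAM replicates 1 to 5. In RAM replicates 1 to 5 it was at 13.9, 9.67, 8.61, 8.05 and 13.7 CPM. The groups did not overlap, and the lowest MAM library lay far above the highest RAM library. Means of 289 ± 42.4 and 10.8 ± 2.81 CPM (SD, n = 5) gave a log2 fold change of 4.74 (SE 0.180, adjusted p = 7.7e-12, edgeR). At 3.73% of the MAM mean, the RAM level was above the lowest level of abundant genes. The gene lies on chromosome 3 at 90603771 to 90606045, plus strand, where GENCODE M21 also places Gm42674 on the same strand. Gm42674 was not analysed here, and its reads cannot be told apart from those of S100a4 where the models coincide.

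Fn1 encodes fibronectin, the matrix glycoprotein bound by integrins, and was the most abundant of the 9 genes in both groups. MAM replicates 1 to 5 held 10409, 9037, 5887, 3588 and 5906 CPM, and RAM replicates 1 to 5 held 1941, 1369, 1285, 1538 and 2257. The groups did not overlap, but MAM replicates 1 and 2 were well above the other 3 MAM libraries. With means of 6965 ± 2731 and 1678 ± 411 CPM (SD, n = 5), the log2 fold change was 2.05 (SE 0.242, adjusted p = 3.2e-06, edgeR). Among the 8 genes higher in MAMs it had the smallest fold change, and RAMs held 24.1% of the MAM level, so Fn1 was an abundant transcript of RAMs too. The gene spans 71585520 to 71653200 of chromosome 1, minus strand, and overlaps Apol7d on the plus strand.

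Vcan encodes versican, a large chondroitin sulfate proteoglycan that classical monocytes and stromal cells secrete. It was at 158, 256, 274, 258 and 258 CPM in MAM replicates 1 to 5, and at 13.3, 4.88, 5.07, 4.42 and 9.10 in RAM replicates 1 to 5. MAM replicate 1 stood below its group, the other 4 MAM libraries were nearly level, and no RAM library came near them. The means, 241 ± 47.0 and 7.36 ± 3.83 CPM (SD, n = 5), gave a log2 fold change of 5.03 (SE 0.306, adjusted p = 1.8e-09, edgeR). The RAM level was 3.06% of the MAM level. Vcan, at chromosome 13, 89655312 to 89742509, minus strand, overlaps Gm16318 and Gm4117 on the plus strand, and since the strand setting of the counting is not given in the sources used here, reads of such antisense genes cannot be told apart from those of Vcan.

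F13a1, the catalytic A subunit of coagulation factor XIII that cross-links fibrin, was at 106, 174, 155, 215 and 165 CPM in MAM replicates 1 to 5. RAM replicates 1 to 5 held 3.01, 1.07, 1.39, 1.73 and 1.07 CPM. MAM replicate 1 was again the lowest of its group, and RAM replicate 1 the highest of the other, with a wide gap between them. Means of 163 ± 39.2 and 1.65 ± 0.809 CPM (SD, n = 5) gave a log2 fold change of 6.62 (SE 0.301, adjusted p = 6.2e-11, edgeR), next in size after Plac8. The RAM level was 1.01% of the MAM level, again close to the lowest level of abundant genes, and with 1% of the other group subtracted the log2 fold change was 9.02, again dependent on the prior count. F13a1 spans 36867178 to 37050244 of chromosome 13, minus strand, and overlaps Gm49144 and Gm30489 on the plus strand.

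Hp encodes haptoglobin, the plasma protein that binds free haemoglobin. It was at 3.21, 7.23, 14.2, 5.75 and 7.94 CPM in MAM replicates 1 to 5 and at 0.428, 0.0901, 1.30, 2.04 and 1.83 in RAM replicates 1 to 5. The groups did not overlap, but MAM replicate 1 and RAM replicate 4 were close, and RAM values ranged from 6 to 98 counts. With means of 7.68 ± 4.09 and 1.14 ± 0.857 CPM (SD, n = 5), the log2 fold change was 2.76 (SE 0.666, adjusted p = 0.0025, edgeR). RAMs held 14.8% of the MAM level. Hp lies on chromosome 8 at 109575128 to 109579172, minus strand, and Plac8 on chromosome 5 at 100553725 to 100572245, minus strand.

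Ace encodes angiotensin-converting enzyme, the peptidase of the vessel wall that makes angiotensin II, and was the one gene higher in RAMs. MAM replicates 1 to 5 held 9.25, 3.17, 10.5, 13.6 and 12.3 CPM, and RAM replicates 1 to 5 held 35.8, 33.0, 22.2, 38.2 and 38.3. The highest MAM library lay below the lowest RAM library, RAM replicate 3, and MAM replicate 2 was the lowest of all. The means were 9.75 ± 4.04 and 33.5 ± 6.70 CPM (SD, n = 5), a log2 fold change of -1.78 (SE 0.305, adjusted p = 1.4e-04, edgeR), or 3.43-fold higher in RAMs. MAMs held 29.1% of the RAM level. Ace lies on chromosome 11 at 105967945 to 105989964, plus strand, opposite Gm11651. In direction Ace thus departed from the name of the list, a set of markers of macrophages that come from monocytes.

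The windows of 250 bases before the first RefSeq start of S100a4 (chr3:90603520-90603769, plus strand) and Ace (chr11:105967698-105967947, plus strand) are shown for a pair of genes that moved in opposite directions, with TATAAA or its reverse TTTATA in capitals (GRCm38.p6, 5′ to 3′).
S100a4: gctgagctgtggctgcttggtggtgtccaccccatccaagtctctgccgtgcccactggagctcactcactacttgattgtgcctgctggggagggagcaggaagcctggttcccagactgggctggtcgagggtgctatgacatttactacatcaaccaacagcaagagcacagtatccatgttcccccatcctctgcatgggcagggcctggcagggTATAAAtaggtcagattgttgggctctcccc
Ace: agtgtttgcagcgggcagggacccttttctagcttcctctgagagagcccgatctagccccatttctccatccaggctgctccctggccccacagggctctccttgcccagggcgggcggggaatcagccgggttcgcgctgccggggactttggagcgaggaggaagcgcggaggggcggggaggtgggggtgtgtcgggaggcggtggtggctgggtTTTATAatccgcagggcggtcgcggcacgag
In S100a4 the letters are on the strand shown and in Ace on the other strand, in both beginning 31 bases before the start, and in Ly6c1 they begin 143 bases before it. Neither window held GAGGAAGT or TTGCNNAA.

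**Figure D3:**
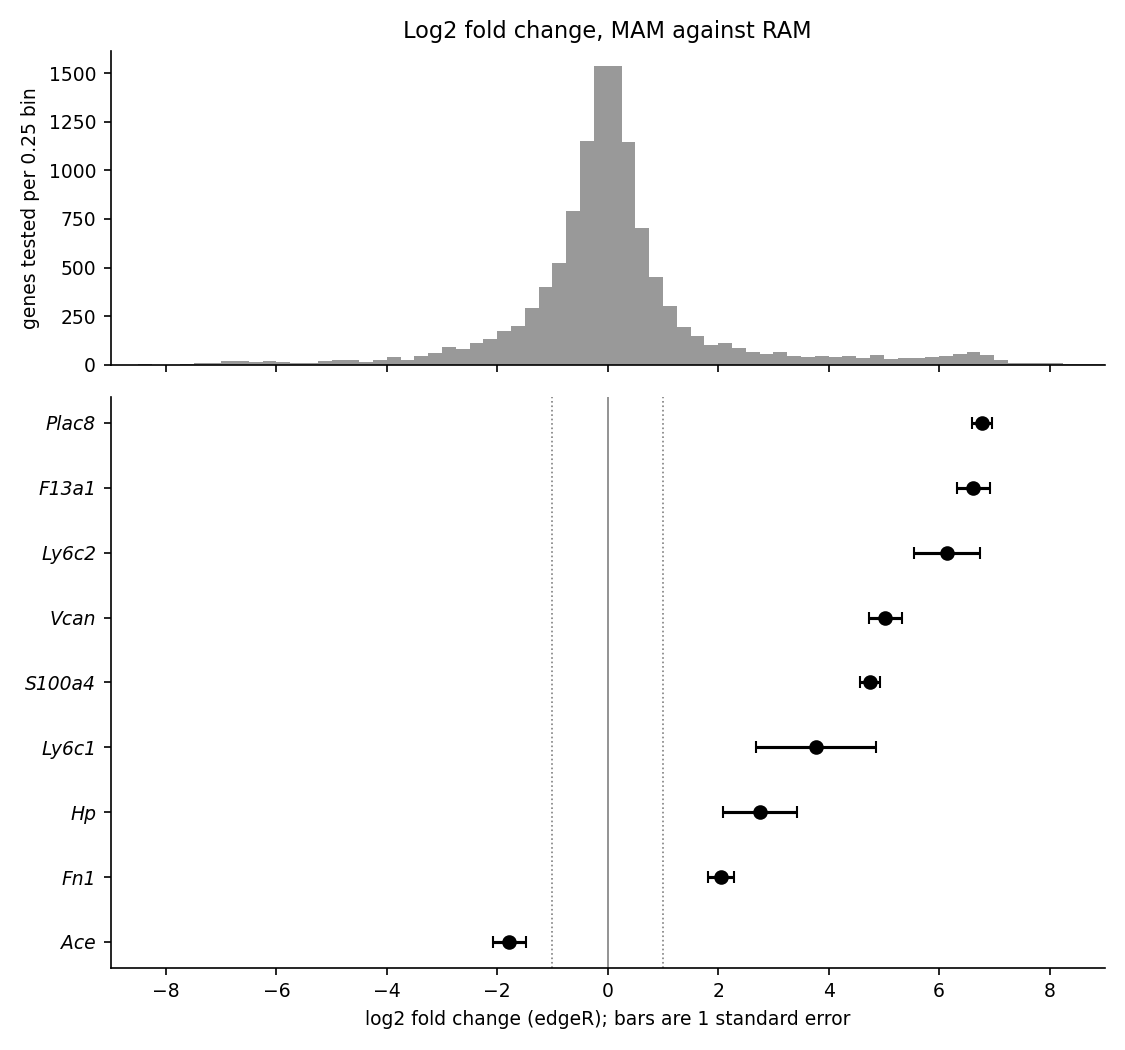
Log2 fold change of MAMs against RAMs (horizontal axis) for all 11571 genes tested, as a histogram above, and for the 9 monocyte marker genes with bars of 1 standard error from edgeR below. Dotted lines mark a 2-fold difference. The 9 genes run from -1.78 for Ace to 6.78 for Plac8, and the median of all genes was -0.02.

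**Figure D4:**
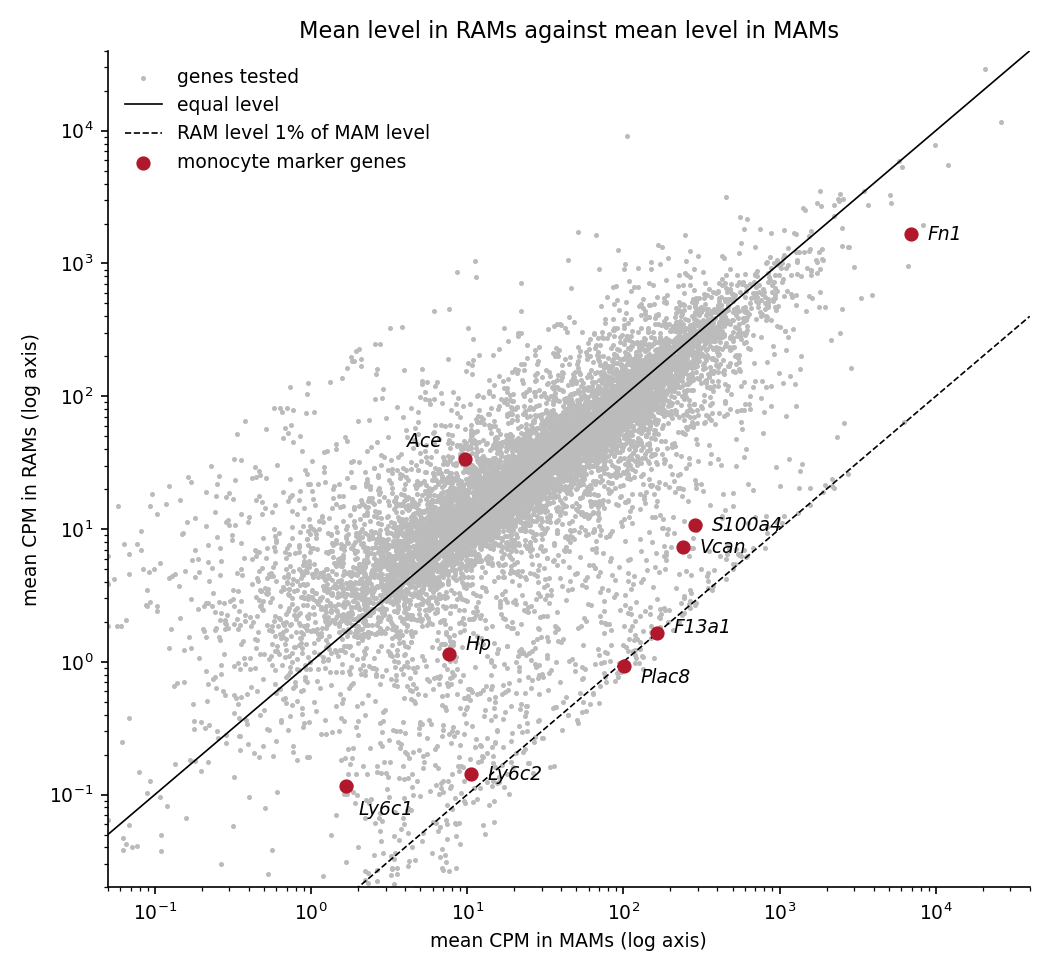
Mean CPM in RAMs against mean CPM in MAMs, both axes logarithmic, for the genes tested (grey, those beyond the axes left out) and the 9 monocyte marker genes (named). The line marks equal levels and the dashes a RAM level of 1% of the MAM level. Ly6c2, Plac8 and F13a1 lie near the dashes, with RAM levels of 1.36%, 0.914% and 1.01% of the MAM level. Of the genes tested, 258, 109 and 158 had a higher log2 fold change than Ly6c2, Plac8 and F13a1 in turn. Ace lies on the other side of the diagonal.

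Compared per length, the order of the 9 genes differed between the groups. In MAMs, mean FPKM was 903 for Fn1 and 804 for S100a4, whose libraries overlapped, and then 174 for Plac8, 37.0 for F13a1 and 21.0 for Vcan, each step without overlap between libraries. Ly6c2 at 15.5, Hp at 6.61, Ace at 2.34 and Ly6c1 at 1.08 FPKM followed, and each overlapped the next in order. In RAMs, mean FPKM was 225 for Fn1, 31.2 for S100a4 and 8.44 for Ace, with no overlap between these or with Plac8 at 1.64. The rest followed as Hp at 1.08, Vcan at 0.704, F13a1 at 0.407, Ly6c2 at 0.282 and Ly6c1 at 0.160 FPKM, neighbours that overlapped throughout. Ace thus stood above Plac8 in RAMs and below it, and below Hp and Ly6c2, in MAMs.

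By their median, the 9 genes varied more between libraries of a group than all genes tested. The median SD of log2 CPM was 0.60 in MAMs and 0.61 in RAMs for the 9 genes, against 0.28 and 0.24 for all genes tested, and 7 of the 9 in MAMs and all 9 in RAMs were above the median of all genes. In MAMs, Plac8 (0.24) and S100a4 (0.22) were below it. The comparison was not matched for level, and Ly6c1, Ly6c2, Vcan and F13a1 had mean FPKM in RAMs below the filter. Ly6c1, Ly6c2, Plac8 and Hp rested on 0 to 98 counts in a RAM library. The 9 genes did not vary as one block. MAM replicate 1 was the lowest library of its group for Ly6c1, Ly6c2, Vcan, F13a1 and Hp and the highest for Plac8 and Fn1, while MAM replicate 3 was the highest for Ly6c1, Ly6c2, Vcan and Hp and the lowest for none. MAM replicate 4 was the lowest for Plac8, S100a4 and Fn1 and the highest for F13a1 and Ace.

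**Figure D5:**
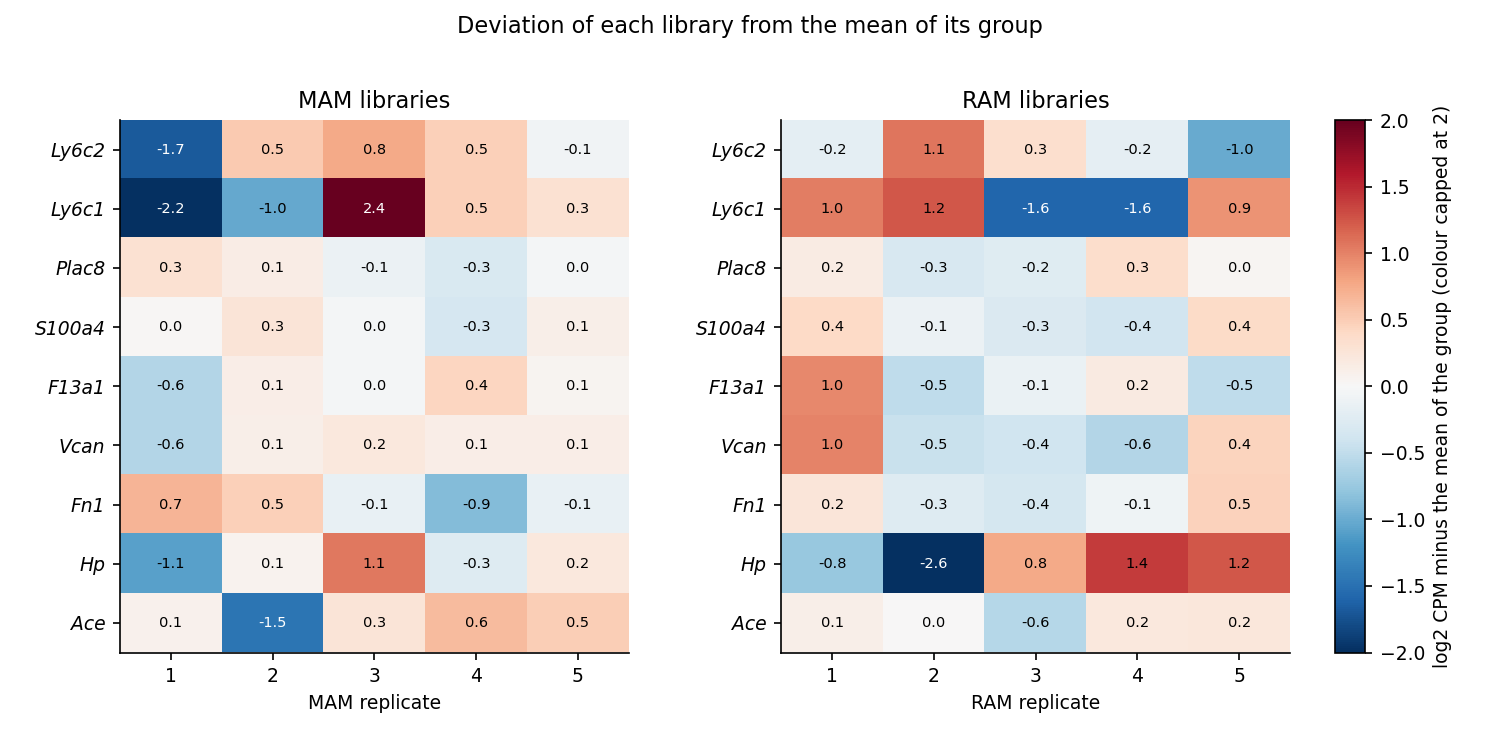
Log2 CPM of each of the 9 genes in each library minus the mean of its own group, for MAM replicates at the left and RAM replicates at the right, with colours capped at 2. In MAM replicate 1, 5 of the 9 genes are the lowest of their group and Plac8 and Fn1 the highest.

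The pattern over the 10 libraries was compared with that of every other gene tested by the root mean square difference of log2 CPM after centring each gene. Centring was over both groups together, so the difference between the groups enters the distance. A near gene can thus be one with a like log2 fold change, such as C1qb (6.78) for Plac8 (6.78), and need not vary with it within a group. Nearest to Plac8 were Rsad2, an interferon-induced antiviral enzyme, at 0.17 and C1qb, a chain of complement C1q, at 0.18. Rsad2 (1561 CPM in MAMs and 15.2 in RAMs) and C1qb (2233 and 20.4) had RAM levels close to 1% of the MAM level. Plac8 and both genes thus lay near the lowest level that abundant genes reached, and their likeness beyond this was not tested. S100a4 lay nearest to its chromosome neighbour S100a6 at 0.22 and to Ccr2, the chemokine receptor of classical monocytes, at 0.25, and Vcan also lay nearest to S100a6 at 0.37, followed by Calhm2 at 0.38. F13a1 was closest to Arhgef10l at 0.23 and Rnf150 at 0.33, Fn1 to Bcam at 0.24 and Rnaset2b at 0.29, and Ace to Gm10804 at 0.30 and Irgc1 at 0.34. The less abundant genes had looser neighbours: Abcc3 at 0.52 and Msantd3 at 0.55 for Ly6c2, Rragd at 0.66 and Ms4a4b at 0.72 for Hp, and 4930592I03Rik at 0.98 and Fermt2 at 1.01 for Ly6c1. Within the list, Vcan and S100a4 were the closest pair at 0.39 and Plac8 and F13a1 followed at 0.49.

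Other genes of classical monocytes moved in both directions. Of 21 tested, 15 were higher and 5 lower in MAMs, against 28.9% and 27.3% of all genes tested, and with a median log2 fold change of 0.99 against -0.02 for all genes. These all-gene values are the background of every list that follows, and the most abundant gene of a list is that with the highest mean over both groups. In every list, a log2 fold change with a RAM level near 1% of the MAM level was not resolved in size. The largest changes were in Thbs1, which encodes thrombospondin-1 (log2 fold change 6.74), and Ifitm6 (6.72), while the most abundant gene, Lyz2, which encodes lysozyme, was lower (-0.50). Ace is otherwise a gene of nonclassical monocytes, and of 16 other genes of that kind 10 were higher and 2 lower, with a median of 1.26. Hes1, a transcriptional repressor (5.60), and Ceacam1, an adhesion molecule (4.92), had the largest changes among them, though Hes1 was low, at 4.98 CPM in MAMs and 0.0983 in RAMs. Itgal, the integrin chain CD11a and the most abundant over both groups though not in MAMs, was lower (-2.52). Of 15 genes that monocytes take up as they become tissue macrophages, 14 were higher and 1 lower, with a median of 5.24, led by the complement genes C1qa (6.81) and C1qb (6.78). MAM and RAM means were 813 and 7.25 CPM for C1qa and 2233 and 20.4 for C1qb. For Thbs1 they were 2754 and 25.8 CPM, and for Ifitm6 119 and 1.13. All these RAM levels were close to 1% of the MAM level, so the sizes and order of these changes were not resolved.

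In the families of Ly6c1, Ly6c2 and S100a4 the other members were not of one kind. Of 17 other Ly6 genes listed, 16 were in the tables and 5 were tested, and of these 4 were higher and none lower: Ly6a, the stem cell antigen Sca-1 (log2 fold change 6.56), Lynx1 (4.11), Ly6i (3.26) and Ly6e, the most abundant (2.75). Ly6a was at 680 CPM in MAMs and 7.21 in RAMs, close to the lowest level of abundant genes. Of 8 other S100 genes tested, 4 were higher and 4 lower, against 28.9% and 27.3% of all genes, with a median of -0.04. S100a6 (4.99) and S100a9, a subunit of calprotectin (3.47), rose most, and S100a10, the most abundant, rose by 0.50. S100a9 was low, at 3.88 CPM in MAMs and 0.350 in RAMs with groups that overlapped, while S100a6 was at 240 and 7.54.

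The partners of the secreted products were read in the same way. Of a list of receptors of fibronectin and versican and proteases that cut versican, 10 genes were tested, all of them receptors or receptor chains. Of these, 8 were higher and 2 lower, with a median of 0.97. None of the listed proteases passed the filter for testing. Sdc4, which encodes syndecan-4 (6.37), and Itgb7, an integrin chain (4.33), rose most, and Cd44, the hyaluronan receptor and the most abundant, was lower (-0.94). Sdc4 was at 272 CPM in MAMs and 3.31 in RAMs, also close to the lowest level of abundant genes. Among 4 tested transglutaminases and factor XIII substrates, Thbs1 (6.74) and Tgm2, tissue transglutaminase (0.90), were higher and none passed the test as lower. For the angiotensin system beside Ace, 3 of 13 genes were tested, and Anpep, aminopeptidase N (5.83), and Atp6ap2, the prorenin receptor (0.42), were higher, while Lnpep, the most abundant over both groups, had a log2 fold change of 0.06 that did not pass. Of 5 tested genes for haptoglobin and haem clearance, 3 were higher and 1 lower, with a median of 2.21. Cd163, the receptor for haptoglobin-haemoglobin complexes (5.83), and Hmox1, haem oxygenase 1 (4.14), rose most beside Hp, and Lrp1, the most abundant, was at -0.01 and did not pass.

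Several of the 9 genes are also transcribed by other cells that a sort of lung or metastasis can carry, and the markers of those cells were read beside them. Of 17 neutrophil markers, which bear on Plac8 and Hp, 10 were tested, 6 were higher and 2 lower, against 28.9% and 27.3% of all genes, and their summed level ran from 170.2 to 355 CPM in MAMs and from 145 to 213 in RAMs, with Csf3r the most abundant (146 and 68.4). Elane held 0 counts in all libraries, and Mpo, Ltf, Camp, Ngp, Retnlg and the surface antigen gene Ly6g had means under 1 CPM in both groups. The protease genes Mmp8 (42.0 and 58.5 CPM) and Mmp9 (19.0 and 0.252) of the same list were not low in MAMs, and Mmp9 had its largest log2 fold change, 6.21. Platelet and megakaryocyte markers, which bear on F13a1, over 11 genes summed to between 355 and 1051 CPM in MAMs and between 18.7 and 32.3 in RAMs. Of 4 tested, Pf4 (565 and 6.24 CPM) and Ppbp (148 and 2.29) were higher and Gp5 lower, while Gp9, Gp1bb, Gp6 and Tubb1 were under 1 CPM in both groups. In MAM replicates 1 to 5 the sum was 355, 523, 789.7, 874 and 1051 CPM. MAM replicate 1 was lowest for both the sum and F13a1, and F13a1 was highest in replicate 4 and then in replicate 2. Most of the sum in MAMs was Pf4, so its order is largely that of Pf4. Among genes not tested, Itga2b (1.68 and 3.34 CPM) and Gp1ba (0.978 and 2.49) had lower means in MAMs and Treml1 (1.26 and 0.254) a higher one. Whether platelets contributed to F13a1 was not tested.

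Markers of fibroblasts and stroma, which bear on Fn1 and Vcan, over 11 genes summed to between 8.85 and 50.9 CPM in MAMs and between 5.38 and 10.6 in RAMs. Of 3 tested, Col1a1 (5.21 and 0.197 CPM) and Pdgfra (4.24 and 0.188) were higher and none lower, and the most abundant, Acta2, was at 5.73 and 4.78. In MAM replicates 1 to 5 the sum was 50.9, 8.85, 43.0, 11.4 and 30.5 CPM. MAM replicate 1 was highest for both the sum and Fn1 and lowest for Vcan. Among the other MAM libraries, which were nearly level in Vcan, Vcan had the order of the sum and Fn1 did not. Whether stromal cells contributed to either gene was not tested. Epithelial and tumour markers over 10 genes summed to between 1.11 and 11.9 CPM in MAMs and between 0.393 and 1.20 in RAMs, with the highest again in MAM replicate 1, and Krt5 and Cldn3 held 0 counts in all libraries. Krt18 was the only one tested and did not pass, and its MAM mean of 1.81 CPM came from replicate 1, at 8.84 CPM, with 0 to 0.201 in the other MAM libraries. Krt8, not tested, ran from 0.615 to 3.31 CPM in MAMs, highest in replicate 3, and from 0 to 0.205 in RAMs. Krt7, Krt14 and Elf3 had higher means in MAMs and Cldn4, Cldn7 and Esrp1 in RAMs, all under 1 CPM. Of 12 endothelial markers, which bear on Ace and Ly6c1, 5 were tested, 3 were higher and 2 lower, and the sum lay between 74.7 and 158 CPM in MAMs and between 221 and 312 in RAMs. In RAMs most of it was Vwf (151 CPM, against 19.3 in MAMs), and Calcrl was also lower in MAMs (95.8 CPM in RAMs, against 43.3). Kdr (29.0 and 0.948 CPM in MAMs and RAMs), Pecam1 and Cdh5 were higher in MAMs, and Cldn5, Tie1 and Emcn were under 1 CPM in both groups.

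Alveolar macrophage markers over 15 genes summed to between 371 and 663 CPM in MAMs and between 13312 and 16603 in RAMs, of which none was higher and 14 were lower in MAMs. Dendritic cell markers lay between 10.7 and 26.2 CPM in MAMs and between 27.7 and 33.9 in RAMs, with 2 of 4 tested genes higher and 2 lower. Markers of the lung epithelium lay between 22.3 and 40.1 CPM and between 28.9 and 50.1, with 1 of 6 tested higher and 4 lower, and lymphocyte markers between 5.65 and 22.1 CPM and between 4.06 and 20.4, with none of 4 tested passing. The part of any of these cells in the levels of the 9 genes was not tested.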

How the data were processed

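RNA of 5 MAM and 5 RAM samples was sequenced as paired 100 bp reads from Ovation RNA-Seq System V2 libraries. Alignment by the authors was to GRCm38 with TopHat2 2.0.13. They counted uniquely mapped reads per RefGene model with HTSeq 0.6.1 and deposited raw counts, 1 table per library. The authors also deposited FPKM per gene and library from Cufflinks 2.2.1, and 78 of the 24538 genes have no FPKM value. The strand setting of the counting is not given in the sources used here. Counts assigned to no gene, 56.5% ± 1.65 of all counts in MAMs and 63.2% ± 0.898 in RAMs (SD, n = 5), were left out of totals and tests. Groups came from the sample records. MAM samples pooled mice, and p-values measure the spread between these samples.

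A mean FPKM of 1 or more in either group and a count in any library were required for testing (11571 genes) with edgeR 4.0.16 in R 4.3.3, quasi-likelihood, TMM scaling and no covariates, with Benjamini-Hochberg adjustment at 0.05. CPM are counts over the TMM-scaled total of tested genes, and log2 CPM used a prior count of 2. The SE is the log2 fold change divided by the square root of its F value. The step was tested on simulated data of 11571 genes with 200 changed: it recovered 61% of 2-fold and 89% of 4-fold changes with 5 false calls. As many genes were raised as lowered there, whereas in the real data 56.2% of genes passed. The simulation thus does not show how scaling or false calls behave with so many genes changed. No pairing by replicate number was seen: same-numbered libraries correlated between -0.037 and 0.029 in their deviations from the group means. Libraries of different numbers correlated between -0.036 and 0.033. The sample titles give a replicate number only, and a weak pairing was not excluded.

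The alternatives were DESeq2 1.42.0, scaling by RLE or upper quartile, the filterByExpr rule (13854 genes), no filter (18035 genes), the replicate number as a block, limma 3.58.1 on log2(FPKM + 1) and log2(FPKM + 0.1), subtraction of 1% of the other group's mean, and leaving out each library. For the related lists, leaving out libraries was chosen after seeing the data. Positions came from GENCODE M21 and promoters from a table of RefSeq windows (GRCm38.p6), in which 7 of the 9 genes were matched, Hp and Fn1 not among them. Named genes were the 9, the 2 tested genes nearest to each in profile, the 2 largest changes and the most abundant gene of each related list, the most abundant gene of each cell type list and the sorting markers. Other genes of the cell type and Ly6 lists were named after their values were seen. The 9 genes and all lists were chosen with earlier results of these data known.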

Additional observations from a re-analysis of the deposited data

Results flagged for a closer look

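In MAM replicate 3, Ly6c1 was at 5.19 CPM while the other 4 MAM libraries lay between 0.183 and 1.34, and the gap was 0.769 of the range of the group. In MAM replicate 1, Vcan was at 158 CPM while the other 4 MAM libraries lay between 256 and 274, and the gap was 0.852 of the range. For 5 samples a gap above 0.71 of the range was counted as a sample far from the others. Of the 9 genes in the MAM and RAM groups, 18 sets of 5 values were examined, and chance gives about 1 such set in 20. Vcan was higher in MAMs with any library left out (log2 fold change 4.89 to 5.36).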

How the results depend on the processing

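All 9 genes kept their direction and 8 kept their call under every alternative run. Ly6c1 did not pass with the replicate block (log2 fold change 3.23, adjusted p = 0.078, edgeR), nor in limma on log2(FPKM + 1) (0.51, adjusted p = 0.29) or log2(FPKM + 0.1) (0.91, adjusted p = 0.46), where it is listed at 0 in some libraries. With libraries left out in turn it ran from 2.71, without MAM replicate 3, to 4.16. The block moved the genes called from 3344 higher and 3160 lower to 3205 and 3100 and changed no other call of the 9, and 2 of 5 MAM libraries correlated best with the RAM library of their number. On log2(FPKM + 1) fold changes shrank, to 4.73 for F13a1, 3.54 for Ly6c2 and 3.68 for Vcan. Upper-quartile scaling shifted the median of all genes by -0.16 and left 23.7% of genes higher and 35.2% lower. The transglutaminase list then had 1 gene lower in place of none, as it did with no filter, without MAM replicate 3 and without RAM replicate 3, where its count ranged from 0 to 1. With no filter the angiotensin list also had 1 gene lower. The cause was not tested. Low counts limit Ly6c1, Ly6c2, Plac8, F13a1 and Hp in RAMs, which rest on 0 to 176 counts a library. For Ly6c2, Plac8 and F13a1 the RAM mean was also close to the lowest level that abundant genes reached.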
